A study of Mus musculus with 3 samples.

Results

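The genes described here are 33 genes of homologous recombination, the Fanconi anaemia pathway and the DNA damage checkpoint, chosen by name for their known function and found by symbol among the 44788 symbols of the count table. RNA was sequenced in 3 libraries of T lymphocytes from the spleens of female BALB/c mice, 6 to 8 weeks old. The cells were pulled out with a pan-T bead kit that binds CD90.2 and were cultured for 15 h with LZ-8, a protein of the fungus Ganoderma lucidum that stimulates T cells. The libraries are replicates 1, 2 and 3 of this single treated group. The kit does not separate CD4+ from CD8+ cells, and untreated cells were not analysed here, so the values are levels in treated cells and not responses. Whether each replicate had its own mouse or culture is not stated, so every spread and p-value below measures only the differences between these libraries, which may be technical. In bulk RNA, fewer cells that express a gene and less RNA per cell cannot be told apart.

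Homologous recombination repairs broken DNA ends and stalled replication forks by copying from the sister chromatid. BRCA1 with BARD1 favours the trimming of the ends, and PALB2 and BRCA2 then act in the exchange of strands with the sister. In the Fanconi pathway a nuclear core complex, whose ligase subunit is FANCL, attaches ubiquitin to FANCD2 and FANCI where the DNA strands are crosslinked. ATM answers to broken ends found by the MRE11, RAD50 and NBN complex and acts through CHK2, whereas ATR with ATRIP answers to single-stranded DNA at forks and acts through CHK1.

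The libraries held 19041670, 12669690 and 14715992 counts in replicates 1, 2 and 3, and levels are given as CPM (counts per 1000000 counts of the library). With no read, a gene may still have up to 0.158, 0.237 and 0.204 CPM, and such limits and the intervals below cover counting error only. All 9 T cell markers examined had a mean above 100 CPM. The summed level of 6 B cell markers was 17.3 ± 1.04 CPM (SD, n = 3). That of 3 germinal centre B cell markers was 14.7 ± 1.18 CPM. Of these 3, S1pr2 had a mean of 11.3 CPM and Mybl1 3.36 CPM, and Gcsam had 3, 0 and 1 reads in replicates 1, 2 and 3. Among 5 markers of monocytes and macrophages, with a sum of 4.23 ± 0.52 CPM, Csf1r and C1qa had no read. Cd68 supplied most of that sum, with 80, 46 and 65 reads and a mean of 4.08 CPM. The part of other cells in the levels below was not tested.

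All 33 genes were detected, and most lay below the median of expressed genes. Each reached 1 CPM in at least 2 libraries, as did 30.1% of all symbols, and the 13500 symbols that did so are called expressed genes here. The median of the set was 1.99 CPM per kilobase of exon, against 8.35 for the 12279 expressed genes with an exon length, and 27 of the 33 lay below that median. By this measure 21 of the 33 lay below the lower quartile of expressed genes (2.91), and 1, Msh6, lay above the upper quartile (20.9). By CPM without regard to length, 9 lay below the lower quartile, 17 between it and the median, 4 between the median and the upper quartile and 3 above that. Of the set 21 genes (63.6%) had a mean of at least 10 CPM, against 69.2% of expressed genes, and 2 (6.06%) had at least 100 CPM, against 19.0%. On the log2(CPM + 1) scale the median level was 3.85 ± 0.05 (SD over the libraries) for the set and 4.81 for expressed genes. These are descriptions, and no test was made of the set against other genes. The 33 genes together took 846, 839 and 812 CPM in replicates 1, 2 and 3, of which Atm, Msh6, Rad50, Atr and Atrip supplied 54.4%.

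**Figure D1:**
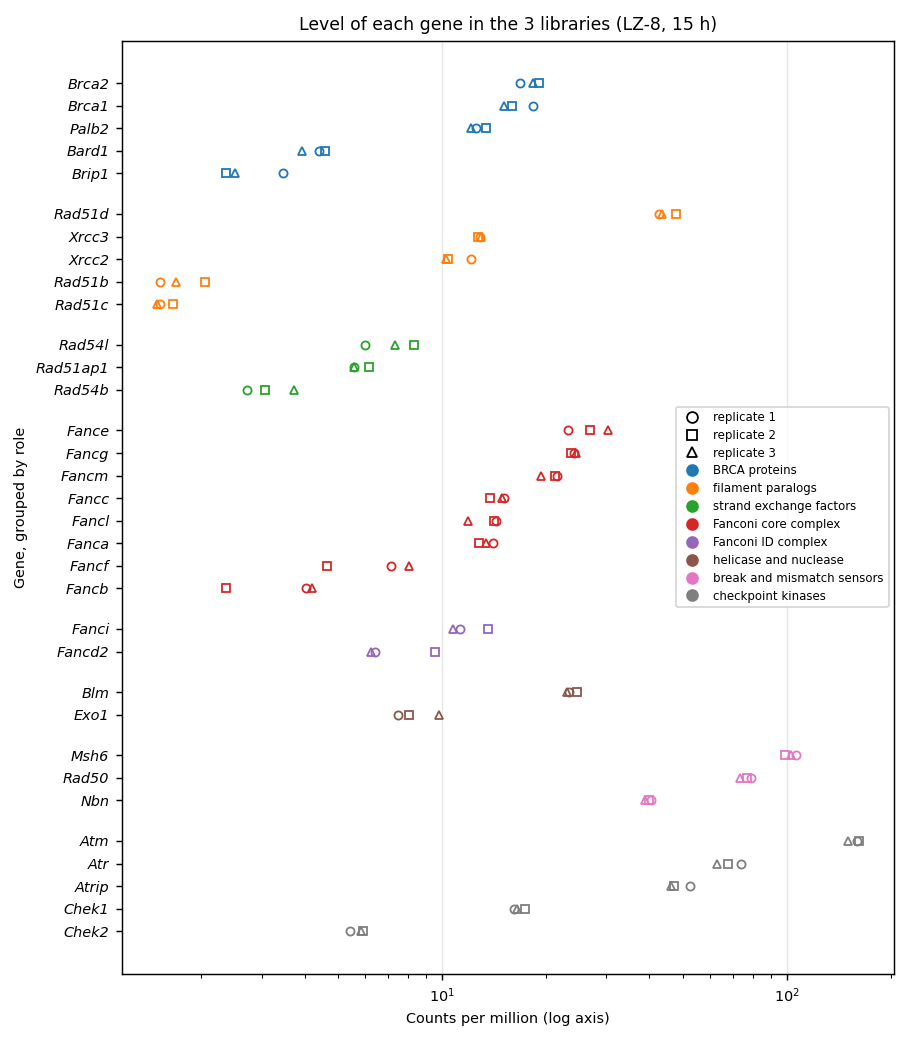
CPM (log axis) of the 33 genes in replicates 1 (circle), 2 (square) and 3 (triangle), coloured by role, under LZ-8 for 15 h. Atm and Msh6 lie farthest right, near 158 and 103 CPM, and Rad51b and Rad51c farthest left, and for most genes the 3 libraries lie close together.

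The starts of the genes were searched for words bound by factors of the cell cycle, among them E2F, which is known to drive many genes of DNA copying. RefSeq promoter sequences (GRCm38.p6, 250 bases before to 50 after the start) were matched for 26 of the 33 genes. The genes with no entry were Rad51d, Xrcc2, Rad54b, Fancd2, Exo1, Rad50 and Nbn. An E2F word (TTTCCCGC, TTTCGCGC, TTTGCCGC or TTTGGCGC, on either strand) was found in 6 of the 26 genes (23.1%), against 2.6% of the 27025 genes with an entry and 5.0% of the 8287 expressed genes with one. The stretches around the words are shown because this count rests on them. They are written 5′ to 3′ in the direction of the gene, with the E2F word in capitals, and GCGGGAAA is TTTCCCGC read on the opposite strand.
Bard1: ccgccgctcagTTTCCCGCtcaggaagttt
Brca2: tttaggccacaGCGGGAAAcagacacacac
Rad51c: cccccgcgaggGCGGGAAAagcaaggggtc
Rad51c, other start: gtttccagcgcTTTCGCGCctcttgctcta
Fancg: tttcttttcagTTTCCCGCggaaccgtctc
Msh6: ctcctcccgacTTTCCCGCcagcggcggcc
Chek2: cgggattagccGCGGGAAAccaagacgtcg

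The stretches lie at chr1:71103163-71103192 on the minus strand for Bard1, chr5:150522442-150522471 on the plus strand for Brca2, and chr11:87404941-87404970 and chr11:87404477-87404506 on the minus strand for Rad51c. Those of Fancg (chr4:43010335-43010364, minus), Msh6 (chr17:87975054-87975083, plus) and Chek2 (chr5:110839820-110839849, plus) complete the set. The word begins 209 bases before the RefSeq start in Bard1, 168 in Brca2, 152 in Chek2, 52 in Fancg and 5 in Rad51c, and it lies after the start in Msh6 and at the other start of Rad51c. The 6 genes span the whole order of levels, from Msh6 to Rad51c. Their median was 1.62 CPM per kilobase of exon, against 2.02 for the 20 genes without a word.

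The other words gave mixed shares. The CCAAT box (CCAAT, either strand) was in 18 of the 26 genes (69.2%), against 41.1% of all genes with an entry and 43.4% of expressed ones. The ETS word CCGGAAG, on either strand, was in 6 (23.1%), against 9.93% and 22.2%. The cell cycle element CHR (TTTGAA, either strand) was in 2, Bard1 and Rad51b (7.69%), against 20.2% and 14.0%. A match describes the letters and not binding, and no share was tested.

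The sensors of breaks and mismatches were the highest role group, with a median of 15.7 CPM per kilobase of exon. Msh6, which recognises mismatched bases, had 106, 99.1 and 103 CPM in replicates 1, 2 and 3. Per kilobase of exon its mean was 23.6 ± 0.82 CPM (SD, n = 3), the highest of the 33 genes, and all its libraries were above those of every other gene. Msh6 lies on chromosome 17 at 87975062 to 87990892 (GRCm38), and 10.8% of its 31-base words occur in transcripts of other genes, so part of its reads may be shared. This limit is not particular to Msh6: at least 5% was shared in 13 of the 33 genes, with the most, 35.0%, in Rad54b. Nbn, which brings ATM to broken ends, had 40.5, 39.9 and 38.9 CPM, and Rad50, the ATPase of the same complex, had 78.7, 76.5 and 73.4 CPM. Nbn (15.7 ± 0.32 CPM per kilobase of exon) was above Rad50 (14.2 ± 0.49) without overlap between libraries.

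The checkpoint kinases and ATRIP ranged widely, from 1.91 to 15.2 CPM per kilobase of exon. Atm, the kinase that signals broken ends (chromosome 9, 53439149 to 53536740), had 160.2, 162 and 150.2 CPM, with replicate 3 lowest. Atr, the kinase of stalled forks, had 73.8, 67.7 and 62.7 CPM, and its partner Atrip had 52.3, 47.1 and 46.2 CPM, both with replicate 1 highest. Per kilobase of exon Atm stood at 15.2 ± 0.63, Atrip at 6.79 ± 0.46 and Atr at 2.88 ± 0.23, without overlap. Per kilobase of coding sequence Atrip (20.6 CPM) was above Atm (17.1). The exons annotated for Atr add up to 23629 bases against 7923 of coding sequence, and Atr was 4th by CPM and 13th per kilobase of exon. Chek1, the kinase that ATR activates, had 16.2, 17.4 and 16.5 CPM, and Chek2, the kinase that ATM activates, had 5.41, 5.92 and 5.84 CPM. Chek1 (3.61 ± 0.14 per kilobase of exon) was above Chek2 (1.91 ± 0.09) in all libraries.

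The BRCA group had a median of 1.33 CPM per kilobase of exon. Brca1 had 18.4, 16.0 and 15.2 CPM, Palb2, which links BRCA1 to BRCA2, had 12.6, 13.4 and 12.2 CPM, and Brca2 had 16.8, 19.2 and 18.3 CPM. Per kilobase of exon Brca1 (1.94 ± 0.20) and Palb2 (1.73 ± 0.09) overlapped between libraries, and both were above Brca2 (1.33 ± 0.09). Bard1, the partner of BRCA1, had 4.41, 4.58 and 3.94 CPM, and Brip1, a helicase that binds BRCA1, had 3.47, 2.37 and 2.51 CPM. Bard1 (0.76 ± 0.06 CPM per kilobase of exon) and Brip1 (0.37 ± 0.08) did not overlap, and Brip1 rested on 66, 30 and 37 reads.

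The 5 paralogs Rad51b, Rad51c, Rad51d, Xrcc2 and Xrcc3, which help to build and steady the protein filament of strand exchange, spanned 0.36 to 12.0 CPM per kilobase of exon, and on this scale no 2 of them overlapped between libraries. Rad51d (chromosome 11, 82876434 to 82890614) had 42.5, 47.8 and 43.5 CPM, with replicate 2 highest. Xrcc3 had 12.9, 12.7 and 12.98 CPM, and Xrcc2 had 12.2, 10.4 and 10.3 CPM. Rad51d stood at 12.0 ± 0.76, Xrcc3 at 4.68 ± 0.05 and Xrcc2 at 2.10 ± 0.20 CPM per kilobase of exon. Per kilobase of coding sequence Xrcc2 (13.1 CPM) was above Xrcc3 (12.3), so the order of these genes depends on the length used. Rad51b had 29, 26 and 25 reads and Rad51c had 29, 21 and 22 reads, that is 1.76 ± 0.27 and 1.56 ± 0.09 CPM. For Rad51c counting alone gives a coefficient of variation of 20.7%, above the observed 5.58%, so its small SD understates its error. For Rad51b counting alone gives 19.6%, so the lack of overlap between Rad51b and Rad51c does not set them apart.

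The genes Rad51ap1, Rad54l and Rad54b, whose proteins act in strand exchange, were low, at a median of 0.93 CPM per kilobase of exon. Rad51ap1, which promotes strand pairing, had 5.57, 6.16 and 5.57 CPM, and Rad54l, a translocase of strand exchange, had 5.99, 8.29 and 7.34 CPM. Rad54b, a relative of Rad54l, had 2.73, 3.08 and 3.74 CPM. Rad51ap1 (1.20 ± 0.07 CPM per kilobase of exon) was above Rad54l (0.93 ± 0.15) and Rad54l above Rad54b (0.55 ± 0.09), without overlap.

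All 8 subunits of the Fanconi core complex examined were detected, at a median of 2.95 CPM per kilobase of exon. Fance, which bridges the core complex and FANCD2, had 23.3, 26.8 and 30.2 CPM, and Fancg, a scaffold subunit, had 24.2, 23.7 and 24.5 CPM. Fancl, the ligase, had 14.4, 14.1 and 11.9 CPM, and Fancf, an adaptor subunit, had 7.14, 4.66 and 8.02 CPM. Fance (8.39 ± 1.09 CPM per kilobase of exon) was above Fancg (6.36 ± 0.11), and Fancl (3.99 ± 0.41) and Fancf (3.91 ± 1.03) overlapped below them. Fancm, the translocase that anchors the complex on DNA, had 21.5, 21.2 and 19.4 CPM, Fancc 15.2, 13.8 and 14.95 CPM, and Fanca 14.1, 12.8 and 13.4 CPM. Fancb, an X-linked subunit that binds FANCL, had 4.04, 2.37 and 4.21 CPM. Per kilobase of exon these followed in the order Fancm, Fancc, Fanca and Fancb, without overlap. Per kilobase of coding sequence Fancc (7.96 CPM) was above Fancm (3.40), Fanca (3.02) and Fancb (1.37), so this order depends on the length used. Replicate 2 was the lowest library for Fancg, Fancf, Fancc, Fanca and Fancb.

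Fanci and Fancd2, whose proteins receive the ubiquitin, had 11.3, 13.7 and 10.8 CPM and 6.41, 9.55 and 6.25 CPM. Replicate 2 was the highest library for both, and per kilobase of exon Fanci (2.06 ± 0.26) was above Fancd2 (0.93 ± 0.24) in every library. Blm, a helicase that dissolves recombination intermediates, had 23.4, 24.7 and 23.1 CPM, and Exo1, an exonuclease that lengthens trimmed ends, had 7.46, 8.05 and 9.79 CPM. Blm (2.71 ± 0.10 per kilobase of exon) was above Exo1 (1.001 ± 0.14) without overlap.

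In the order of all 33 genes per kilobase of exon, 22 of the 32 steps between neighbours joined genes whose libraries overlapped. Msh6 was separated from Nbn, Rad50 from Rad51d and Rad51d from Fance, while Nbn, Atm and Rad50 overlapped in sequence. At the foot of the order Rad54b, Rad51b, Brip1 and Rad51c each overlapped with the next. The order depends on the length used. Per kilobase of coding sequence Rad51d came first at 44.2 CPM, followed by Msh6 at 25.1, Atrip at 20.6 and Rad50 at 19.4, and Brip1 came last at 0.79.

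**Figure D2:**
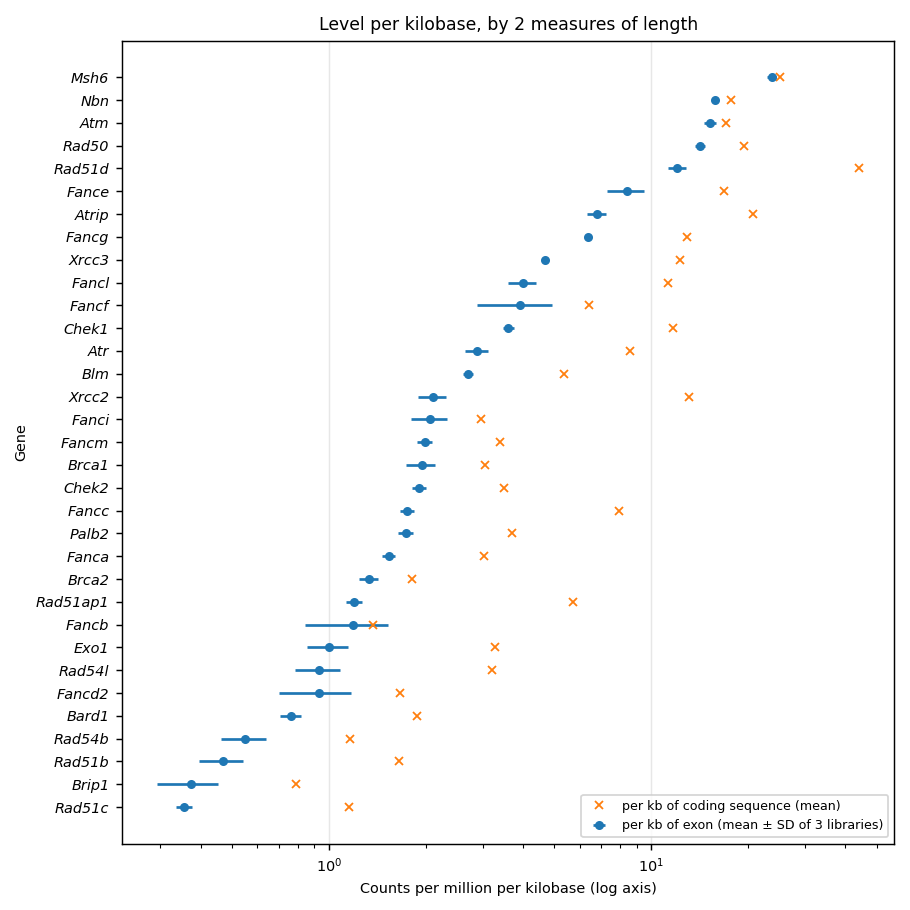
Mean CPM per kilobase of exon (circles, bars show the SD of the 3 libraries) and per kilobase of coding sequence (crosses) for each gene, on a log axis. Msh6 leads at 23.6 by exon length and Rad51d at 44.2 by coding length, and Rad51c, Brip1, Rad51b and Rad54b are lowest by exon length.

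Some genes share exon bases with a neighbour, and whether counting used strand is not known from the sources used here. Exons of other genes cover at least 5% of the exon bases in 11 of the 33 genes. The largest share was 35.9% for Rad54b, covered by Fsbp on the same strand (0.60 ± 0.28 CPM) and the antisense gene Gm11832 together. Atrip shares 16.0% with the exonuclease gene Trex1 on the same strand (12.2 ± 0.80 CPM), and Fanci shares 16.0% with the polymerase gene Polg on the opposite strand (145 ± 5.05 CPM). Fancc shares 18.6%, Rad54l 15.4%, Fancf 15.0%, Fancl 13.7% and Fanca 10.5% with genes on the opposite strand. Lrrc41 stood at 60.6 ± 5.16 CPM beside Rad54l (7.20), and Zfp276 at 55.2 ± 2.45 beside Fanca (13.4). Beside Fancc (14.6), 2010111I01Rik stood at 28.1 ± 2.62 CPM. Vrk2 (13.1 ± 2.32 CPM) was near Fancl (13.5), and Gas2 (1.24 ± 0.42) was below Fancf (6.61). Reads of these genes and their neighbours cannot be told apart over those bases, so their levels, and the ratios that use them, are uncertain.

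Ratios between partners were taken within each library for 19 pairs that share a complex or a step. Per kilobase of exon the first gene was the higher in all 3 libraries in 10 pairs, and the second in all 3 libraries in 9. A two-sided exact sign-flip permutation test gave p = 0.25 for each pair, also after adjustment over the 19 pairs. That is the lowest value that this test can reach on 3 libraries. Any pair with the same direction in all 3 gets it, so the test cannot set pairs apart. In 14 of the 19 pairs the direction was the same in reads and per kilobase of coding sequence.

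Brca1 exceeded Bard1 2.53-fold per kilobase of exon (log2 ratio 1.34 ± 0.13, SD, n = 3), 1.61-fold per kilobase of coding sequence and 3.81-fold in reads. Brca1 supplied 80.7% of the pair's reads in replicate 1, with an exact Clopper-Pearson 95% interval of 76.7 to 84.3%. The share was 77.8% (72.2 to 82.7%) in replicate 2 and 79.4% (74.2 to 83.9%) in replicate 3, so the intervals overlapped. Brip1 was lower than Brca1, with a log2 ratio of -2.38 ± 0.17, and Brca2 lower than Palb2 at -0.39 ± 0.09. Per kilobase of coding sequence the log2 ratio of Brca2 to Palb2 was -1.03, and in reads Brca2 was the higher (0.51), since its exons are longer.

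Among the paralogs, whose proteins work in shared complexes, 3 pairs were compared. Rad51d exceeded Xrcc2, its direct partner, 5.72-fold per kilobase of exon (log2 ratio 2.52 ± 0.20), 3.37-fold per kilobase of coding sequence and 4.07-fold in reads. Rad51c was lower than its partner Xrcc3 at -3.69 ± 0.10, the largest imbalance of the 19 pairs, which is 12.9-fold per kilobase of exon, 10.4-fold per kilobase of coding sequence and 8.11-fold in reads. Rad51c supplied 10.5%, 11.5% and 10.3% of the pair's reads in replicates 1, 2 and 3, with upper interval bounds of 14.8%, 17.1% and 15.2%. Rad51b to Rad51c stood at 0.38 ± 0.15, and the interval of Rad51b's share of their reads included equal numbers in all 3 libraries (36.6 to 63.4%, 40.1 to 69.8% and 38.1 to 67.9%). Rad54l was higher than Rad54b, at 0.76 ± 0.23 per kilobase of exon and 1.46 per kilobase of coding sequence.

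Among the Fanconi genes, Fanca was lower than Fancg, whose protein it binds, at a log2 ratio of -2.05 ± 0.06 per kilobase of exon and -0.85 in reads. Fancb was lower than Fancl at -1.78 ± 0.55, the widest spread of the 19 pairs, and at -3.07 per kilobase of coding sequence. Fance was higher than Fancf at 1.13 ± 0.42 per kilobase of exon and 2.04 in reads. The spread of these pairs came with the low values of Fancb and Fancf in replicate 2. Fancm was slightly higher than Fanca (0.37 ± 0.10). Fancc to Fancf stood at -1.13 ± 0.34 per kilobase of exon, at 1.18 in reads and at 0.34 per kilobase of coding sequence, so its order depends on the length used. Fancd2 was lower than Fanci at -1.16 ± 0.17, and supplied 36.2%, 41.2% and 36.7% of their reads, with the highest upper bound, 47.0%, in replicate 2.

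The ratios between kinases, and of Atr to Atrip, had SDs of 0.04 to 0.08. An SD of 3 libraries can lie below counting error. Atm exceeded Atr 5.30-fold per kilobase of exon (log2 ratio 2.41 ± 0.08), 1.99-fold per kilobase of coding sequence and 2.32-fold in reads. Chek1 exceeded Chek2 1.88-fold per kilobase of exon (0.91 ± 0.04), 3.34-fold per kilobase of coding sequence and 2.91-fold in reads, with 74.9%, 74.7% and 73.9% of their reads in replicates 1, 2 and 3. Atr was lower than Atrip at -1.24 ± 0.04 per kilobase of exon and at -1.26 per kilobase of coding sequence, but higher in reads at 0.49. Blm exceeded Exo1 2.71-fold per kilobase of exon (1.44 ± 0.23) and 1.64-fold per kilobase of coding sequence.

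The order within the sensor pairs was not settled. Rad50 to Nbn stood at -0.15 ± 0.02 per kilobase of exon and at 0.13 per kilobase of coding sequence. Nbn to Mre11a, the nuclease gene of the same complex, stood at 0.56 ± 0.03 per kilobase of exon and at -0.75 per kilobase of coding sequence. The direction of both pairs thus depends on the length used.

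**Figure D3:**
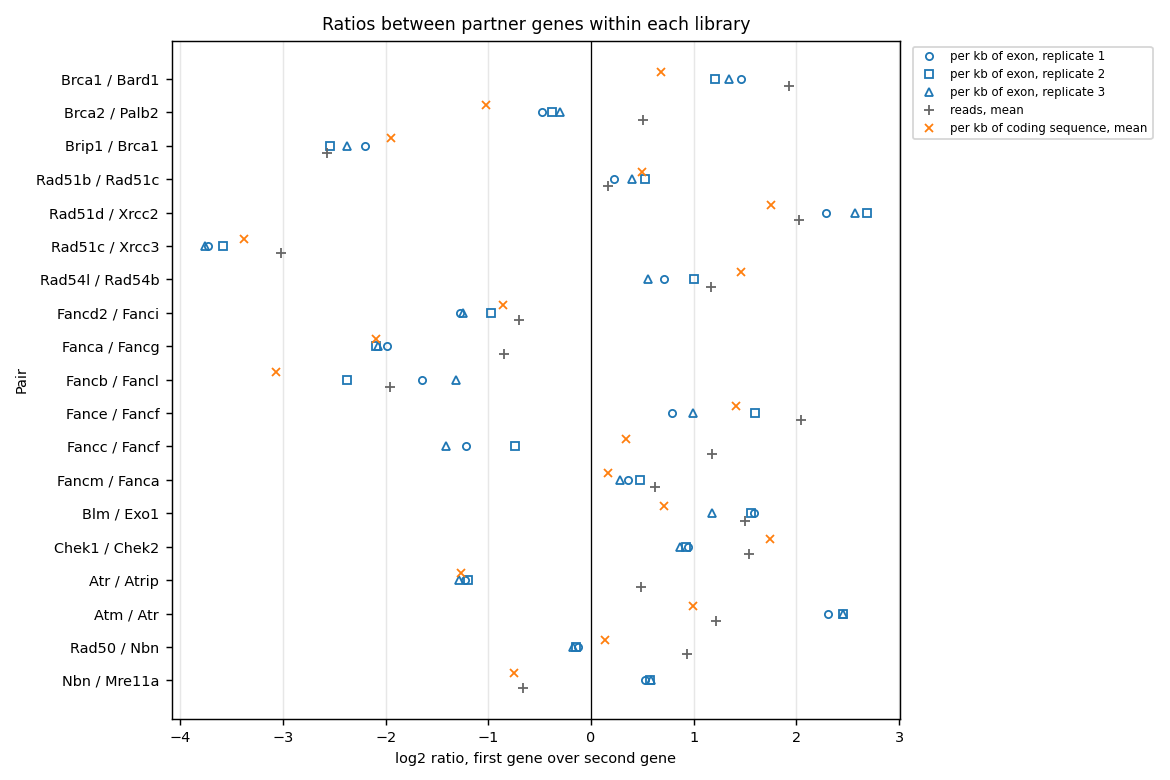
Log2 ratio of the first gene over the second for 19 pairs, per kilobase of exon in each library (circle, square and triangle for replicates 1, 2 and 3), with the mean in reads (plus) and per kilobase of coding sequence (cross). Rad51c to Xrcc3 lies farthest from 0 at -3.69 and Rad50 to Nbn nearest at -0.15, and 14 of the 19 pairs stay on 1 side of 0 by all 3 measures.

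Lists of other homologous recombination, Fanconi and checkpoint genes had higher medians than the set, whose median was 1.99 CPM per kilobase of exon. In 19 other homologous recombination genes the median was 5.79 CPM per kilobase of exon. Rpa1 and Rpa2, subunits of the protein that coats single-stranded DNA, were highest at 30.3 and 19.8, and the resolvase gene Gen1 lowest at 0.65. In 11 other Fanconi genes the median was 7.83. Usp1, whose enzyme removes ubiquitin from FANCD2, and the nuclease subunit gene Ercc1 were highest at 29.8 and 19.0. Ube2t, whose enzyme passes ubiquitin to FANCD2 with FANCL, was lowest at 0.57. For Usp1, 31.6% of the 31-base words occur in transcripts of other genes, so part of its reads may be shared.

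The 16 other checkpoint genes had a median of 6.81 CPM per kilobase of exon. They ran from the histone variant gene H2afx at 48.2 and the clamp gene Rad9a at 23.1 down to Clspn, an adaptor of CHK1 activation, at 1.22. Other transcripts hold 11.2% of the 31-base words of H2afx and 7.89% of those of Rad9a. In 3 other mismatch repair genes, Pms2 stood at 4.52, Pms1 at 2.07 and Msh3 at 1.92. The 9 end joining genes found had a median of 6.38. Xrcc5 and Xrcc6, which encode the Ku proteins that hold broken ends, were highest at 25.3 and 11.96, and the ligase gene Lig4 lowest at 2.26. No difference between these lists and the set was tested.

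Most genes of meiotic recombination were at or near 0, with a list median of 0.02 CPM per kilobase of exon. Of 12 genes, Dmc1 (the recombination enzyme of meiosis), Hormad1, Sycp1 and Meiob had no read in any library. Psmc3ip (8.20 ± 1.13 CPM), Msh5 (25, 18 and 26 reads) and Spo11 (1.32 ± 0.45 CPM) were the 3 that counted as expressed. Psmc3ip encodes a partner of DMC1, and Spo11 the enzyme that cuts DNA in meiosis. Exons of Mlx on the opposite strand cover 21.2% of the exon bases of Psmc3ip, so its level is uncertain.

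The median of 12 genes of S phase and replication was 41.4 CPM per kilobase of exon, and that of 10 mitosis genes was 1.55, against 1.99 in the set. The replication genes ranged from 1.87 to 87.8 CPM per kilobase of exon and the mitosis genes from 0.56 to 6.96, so both lists overlapped with the 0.36 to 23.6 of the set. No test was made of these differences.

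**Figure D4:**
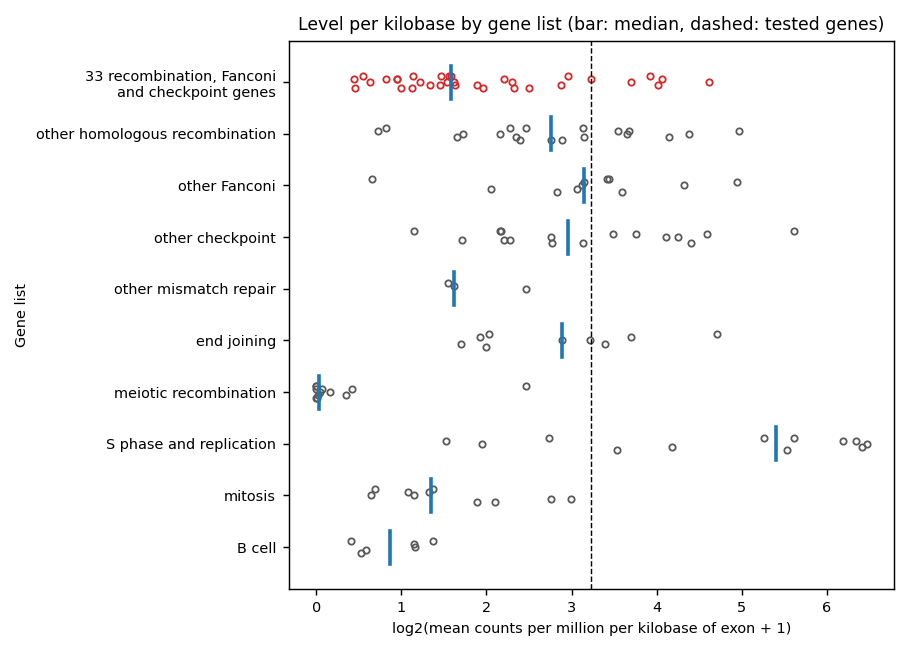
Level of each gene as log2(mean CPM per kilobase of exon + 1) for the 33 genes (red, top) and other lists (grey), with a bar at each list's median and a dashed line at the median of expressed genes. The median of the 33 genes lies left of the dashed line and near that of the mitosis list, the replication list lies farthest right and the meiotic list at 0.

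Differences between libraries beyond counting noise were tested for all 13500 expressed genes with a likelihood-ratio test in edgeR whose dispersion was 0, which compares these libraries and not conditions. Of the 33 genes 4 (12.1%) varied at an adjusted p under 0.05, against 13.7% of expressed genes, a share near the background. The shares were not matched for level, and the set lay lower, at a median of 13.4 CPM against 27.0. The 4 genes were Fance, Atr, Fancf and Fancd2, and 8 of the 33 had an unadjusted p under 0.05. The share of expressed genes by unadjusted p is not given here, so the count of 8 is not read as a result about the set. In the 5 lists of other pathway genes, leaving out meiosis, 9 of 58 genes (15.5%) varied.

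By CPM, Fance (443, 340 and 445 reads) was lowest in replicate 1 and highest in replicate 3. Its range was 0.39 log2 units, with adjusted p = 0.0048 in edgeR's test. Atr (1405, 858 and 923 reads) was highest in replicate 1, with a range of 0.22 and adjusted p = 0.0117. Fancf (136, 59 and 118 reads) was lowest in replicate 2, with a range of 0.79 and adjusted p = 0.0154. Fancd2 (122, 121 and 92 reads) was highest by CPM in replicate 2, with a range of 0.60 and adjusted p = 0.0208 in edgeR's test. The 4 genes thus did not vary in 1 common pattern. Fancb had the widest range of the set, 0.83, and did not pass (77, 30 and 62 reads, adjusted p = 0.0788).

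The calls depended on single libraries. Without replicate 1, Fance (adjusted p = 0.316 in edgeR's test) and Atr (0.404) no longer passed. Without replicate 2, Fancd2 (0.964) and Fancf (0.641) no longer passed, and without replicate 3, Atr (0.279), Fance (0.261) and Fancf (0.0731) did not.

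The spread between libraries differed among the genes. The SD between libraries exceeded that of counting alone in 19 of the 33 genes. The same share over expressed genes is not given here, so this count is not read as added variation of the set. The SD was smallest in Xrcc3 and Fancg, at 1.11% and 1.77% of the mean CPM, and largest in Fancb and Fancf, at 28.8% and 26.4%. Counting alone gives 7.18% in Xrcc3 and 5.25% in Fancg, so their small SDs understate their error. In Fancb and Fancf it gives 13.5% and 9.92%. Across the 33 genes, which are not independent replicates, the log2 levels of any 2 libraries had a Pearson's r between 0.988 and 0.994.

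**Figure D5:**
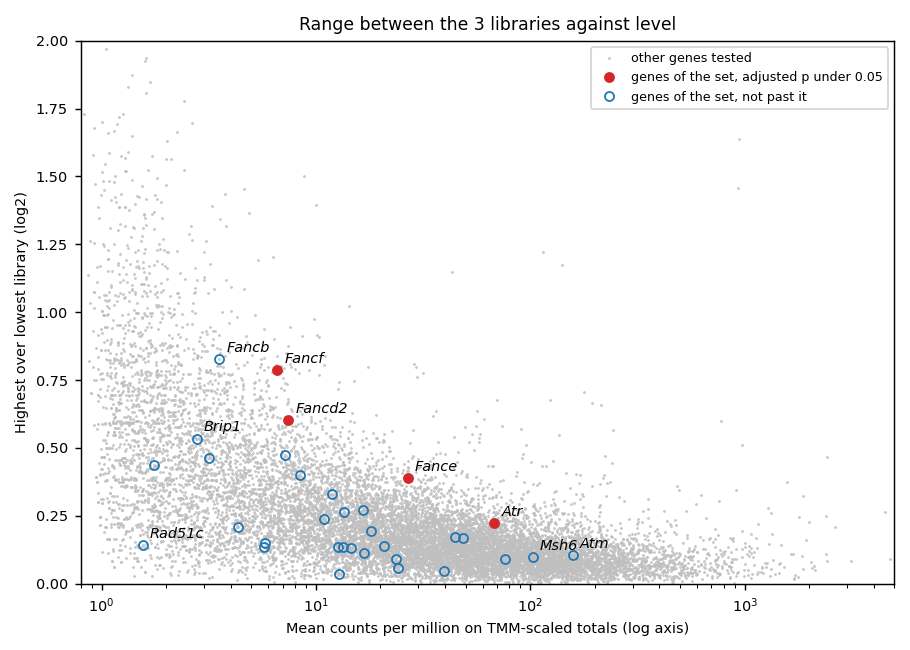
Range between the highest and the lowest library (log2) against mean CPM on TMM-scaled totals (log axis) for expressed genes (grey) and the 33 genes, filled red where adjusted p was under 0.05 and open blue otherwise. The red points are Fancf, Fancd2, Fance and Atr, the 33 genes lie within the grey cloud, and 12 genes fall outside the axes.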

How the data were processed

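Raw read counts per gene symbol in 3 libraries, deposited by the authors as 1 table, were the only measurements used. Library preparation followed an Ion Proton RNA-seq protocol on Trizol-extracted RNA, per the labels' protocols. The submitters' processing notes name the build mm10. Aligner, counting tool, annotation and strand setting: not given in the sources used here.

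CPM is the count divided by the library total times 1000000. A single group allows no contrast. Expressed genes (CPM of 1 or more in 2 or more libraries) were therefore compared between libraries with edgeR 4.0.16 (TMM scaling, glmFit, dispersion 0, likelihood-ratio test, Benjamini-Hochberg over all of them). Tested on simulated Poisson counts with changes put into replicate 2 (13355 genes in the fit), it called 68 of 98 genes at a 1.5-fold change, 93 of 99 at 2-fold and 12 of 13158 unchanged genes. Ratios had 0.5 added to each count. Exon and coding lengths and overlaps are from GENCODE vM21 (GRCm38), promoters from RefSeq. DESeq2 1.42.0 supplied alternative size factors. Software versions were R 4.3.3, Python 3.11.15 and pandas 2.3.3, with scipy 1.17.1 for exact intervals.

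The 33 genes, lists, pairs and tests were chosen with earlier results of these data known. All 33 genes are named, and of each pathway list the 2 highest and the lowest per kilobase of exon. The meiotic genes were named after their values were seen. The end joining gene Paxx was not matched, and 2 Fanconi genes were found under older symbols. Some genes and pairs of the lists are not reported here and were left out of the counts.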

Additional observations from a re-analysis of the deposited data

How the results depend on the processing

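DESeq2 size factors, unscaled totals and both other expression filters gave 4 varying genes of the set each, the same 4, and between 1668 and 1887 varying genes in all. With a library left out 742 to 1193 genes varied in all, against 1847, and 1 to 2 of the set, against 4, with fewer samples in each fit. The median level of the set, 3.85, was 3.93 as a mean over the genes, and with a library left out it was 3.81 to 3.85. It was 3.80 with 0.5 added to the CPM. The restriction to genes with under 5% of their exon bases overlapped, chosen after seeing the data, left 22 genes with 2 varying and a median of 3.96, and 9 pairs with the first gene higher in 6, with fewer genes and pairs entering. The count of 10 pairs was 12 in reads, 10 with 0.1 added to each count, 11 per kilobase of coding sequence and 10 with any library left out. Directions turned in reads for Brca2 to Palb2 (0.51), Fancc to Fancf (1.18), Atr to Atrip (0.49), Rad50 to Nbn (0.94) and Nbn to Mre11a (-0.66). They turned per kilobase of coding sequence, an alternative added after seeing the data, for Fancc to Fancf (0.34), Rad50 to Nbn (0.13) and Nbn to Mre11a (-0.75). Of the 19 ratios 12 kept their direction but moved by more than the SD between libraries per kilobase of coding sequence, and 12 in reads. The coding length of RefSeq proteins was not run. No paired analysis was possible because there is only 1 group. In 6 genes of the set (Bard1, Brip1, Rad51b, Rad51c, Rad54b and Fancb) every library had fewer than 100 reads, which limits their precision.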
